A study of Mus musculus with 14 samples.

Results

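The comparison described here asks how far the response of mouse liver to tunicamycin depended on genotype. For each gene it takes the change from control to tunicamycin in lsPERK liver and subtracts the same change in wild-type (WT) liver, both on the log2 scale of microarray intensity. A difference below 0 means that the lsPERK response was lower than the WT response, and a difference above 0 that it was higher. The members are the arrays of the 4 groups that the difference needs, chosen by their labels: all 14 arrays of the 14 in the series. WT mice gave 3 control and 4 tunicamycin arrays, and lsPERK mice gave 3 control and 4 tunicamycin arrays. Treated mice received 1 mg/kg tunicamycin and are labelled 6 h, and controls received 0.3% DMSO. lsPERK is the knock-out genotype of the series, and the published study describes it as a liver-specific loss of PERK. The labels name no Cre driver, strain, age or sex, give no collection time for the controls and do not say that arrays came from separate animals, so the spread behind each p-value is that between these arrays and may be technical. A later collection of one group than of another cannot be told apart from its treatment.

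PERK, encoded by Eif2ak3, is a kinase in the membrane of the endoplasmic reticulum (ER), the compartment in which secreted proteins fold. Tunicamycin blocks the N-linked glycosylation of those proteins, so misfolded protein accumulates. PERK then phosphorylates the initiation factor eIF2, which lowers protein synthesis in general while favouring translation of the transcription factor ATF4. ATF4 and its partners raise genes of amino acid supply, redox defence and feedback, a programme known as the integrated stress response. The other arms of the unfolded protein response run through ATF6, a membrane-bound factor that is cut and released in the Golgi, and through IRE1 (Ern1), which splices Xbp1 mRNA. These arms raise chaperones, glycosylation enzymes and the machinery of ER-associated degradation. The series asks whether PERK also aids the activation of ATF6.

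The promoters of some of the named genes hold known elements of these arms, and those of a few well-known targets are shown here. Sequences are from RefSeq (GRCm38.p6), read on the strand of the gene from 250 bases before to 50 after its start; 177 of the 215 genes named by rule had an entry. The composite C/EBP-ATF element bound by ATF4 was searched as TGATGNAAN on both strands, and its reverse complement is in capitals below in 4 genes whose rise was smaller in lsPERK liver.
Nupr1 (chr7:126625543-126625611): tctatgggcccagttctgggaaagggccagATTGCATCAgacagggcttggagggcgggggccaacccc
Fgf21 (chr7:45615592-45615660): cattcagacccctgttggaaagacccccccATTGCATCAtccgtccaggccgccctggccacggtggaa
Chac1 (chr2:119351018-119351086): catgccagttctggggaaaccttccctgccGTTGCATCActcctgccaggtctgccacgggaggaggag
Atf3 (chr1:191183406-191183474): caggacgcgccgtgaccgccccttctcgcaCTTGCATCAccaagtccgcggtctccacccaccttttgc

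The ER stress response element, which ATF6 binds together with NF-Y, was searched as CCAAT and CCACG with any 9 bases between them on both strands and is in capitals in 4 genes of protein folding and glycosylation. The Creld2 and Alg12 starts face away from each other and share 1 copy, so the same bases are printed once on each strand.
Hspa5 (chr2:34771995-34772073): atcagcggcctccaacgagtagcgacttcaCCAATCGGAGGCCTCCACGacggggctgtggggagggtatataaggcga
Pdia6 (chr12:17266461-17266539): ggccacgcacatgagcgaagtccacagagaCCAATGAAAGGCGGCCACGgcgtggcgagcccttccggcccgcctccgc
Creld2 (chr15:88819490-88819568): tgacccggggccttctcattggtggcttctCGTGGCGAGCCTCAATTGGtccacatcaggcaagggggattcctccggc
Alg12 (chr15:88819490-88819568): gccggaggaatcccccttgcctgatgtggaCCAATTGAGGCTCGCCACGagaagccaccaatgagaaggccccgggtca
Herpud1 carried both a copy of the composite element and the related element of ATTGG and CCACG around any 1 base, in capitals here.
Herpud1 (chr8:94386347-94386417): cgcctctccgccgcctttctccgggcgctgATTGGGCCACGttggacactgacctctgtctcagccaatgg

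TGATGNAAN was found in 3.73% of the 1100 promoters of genes whose rise was smaller in lsPERK liver, in 3.04% of the 427 promoters of genes that rose alike, in 2.32% of the 12486 promoters of all genes tested and in 3.95% of all 32851 promoters of the table. The ER stress response element was found in 0.545%, 1.17%, 0.128% and 0.119% of the same sets. The shares rest on few promoters (41 and 13 for the first element, 6 and 5 for the second), no test was made, and a match in these windows is a description of letters and not a binding site.

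The deposited array medians ran from 34.6 to 53.5, and the arrays were quantile normalized, so all intensities below are on that normalized scale. After genes near background were left out, 12076 genes were tested. Hepatocyte markers were bright, with summed intensities of 155700 to 167400 over the 11 measured. Of 53 measured markers in 7 lists of other cell types, 1 had a called difference of responses in the limma fit and 3 had an unadjusted p under 0.05. The macrophage list varied within groups, at 10560 to 30340 in WT controls and 6235 to 20230 in WT tunicamycin arrays. It was at 9892 to 30240 in lsPERK controls and 10210 to 15730 in lsPERK tunicamycin arrays. Its part in single results was not tested. Whole tissue cannot tell fewer cells of a type from less RNA per cell. Arrays of high Xist signal made up 1 of 3 WT control, 1 of 4 WT tunicamycin, 2 of 3 lsPERK control and 2 of 4 lsPERK tunicamycin arrays. Xist status was thus uneven between the genotypes, and the Xist-low arrays alone hold only 1 lsPERK control. With Xist status as a covariate 2909 differences were called, among them 2402 of the 2403 called without it. The 3′ to 5′ signal of β-actin was 1.00 to 1.26 (log2) in WT controls, 0.66 to 1.21 in WT tunicamycin, 0.581 to 1.04 in lsPERK controls and 0.592 to 0.785 in lsPERK tunicamycin arrays. With this ratio as a covariate, 2279 of the 2403 called differences were called again.

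Eif2ak3, the targeted gene, was measured at 240, 443 and 362 in WT controls and at 157, 137 and 127 in lsPERK controls. After tunicamycin it was at 1770, 2420, 1720 and 1760 in WT liver and at 316, 302, 239 and 275 in lsPERK liver. The genotypes did not overlap under either condition, and the signal still rose in lsPERK liver by 1.01 (log2, limma adjusted p = 0.0028). The difference of responses was -1.48 ± 0.27 (SE, adjusted p = 0.0022). The files do not say which part of the transcript is deleted, and a second, dim probe set gave a difference of -0.09.

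Liver responses to tunicamycin were broader with PERK than without it. In WT liver 5636 genes responded (46.7% of those tested), of which 2498 rose (20.7%) and 3138 fell (26%), at a limma adjusted p under 0.05. In lsPERK liver 1897 responded (15.7%), of which 1017 rose (8.42%) and 880 fell (7.29%). The difference of responses itself was called for 2403 genes (19.9%), 1172 below 0 (9.71%) and 1231 above 0 (10.2%), and 978 of them differed by at least 1 on the log2 scale. Between the control groups alone 0 genes were called by limma at the same threshold (510 had an unadjusted p under 0.05), against 4265 between the tunicamycin groups. Of the 2403 genes, 2339 showed the larger gap between the tunicamycin groups. The lsPERK and WT tunicamycin arrays did not overlap for 2297 of the 2403 genes, and for 36.4% of all genes tested.

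Sorted by what the 2 genotypes did, 1040 genes had a smaller rise in lsPERK liver, of which 806 were no longer called there and 234 still rose. A smaller fall was found for 1056 genes, 943 no longer called and 113 still falling. Another 817 genes (6.77%) responded alike, 431 rising and 386 falling. Here alike means that both responses were called in 1 direction, the difference was not, and its 95% interval lay within log2 -1 to 1. For 232 genes both responses were called in 1 direction, but the interval of the difference reached past log2 1. In 89 genes the rise was larger in lsPERK liver and in 79 the fall was larger. Opposite signs, called in both genotypes, were found in 81 genes (0.671%). A further 2396 genes were called in WT liver alone and 252 in lsPERK liver alone, with no called difference. For these, a call in 1 genotype only does not show that the responses differed.

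The balance between differences above and below 0 depends on how the arrays are scaled. With quantile normalization 51.2% of the called differences lay above 0, with median centring 35.7%, and with the values as deposited 6.79% (129 above and 1771 below 0). The median difference of all genes was 0.08, -0.01 and -0.42 (log2) under these settings. Of 2403 calls, 1289 were made again with the deposited values and 1695 with median centring, and no gene was called in the other direction. Smaller falls went from 1056 to 95 with the deposited values and similar responses from 817 to 142, while smaller rises went from 1040 to 1656. Among the 817 genes that responded alike, 87 did so again with the deposited values and 474 with median centring. Function lists are therefore given with many of their counts as deposited, while members that responded alike are counted with quantile normalization alone. Differences counted as deposited are to be read beside 129 genes above 0 and 1771 below among the 12157 tested with those values. The shares of 10.2% and 9.71% of all genes belong to quantile normalization.

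**Figure D1:**
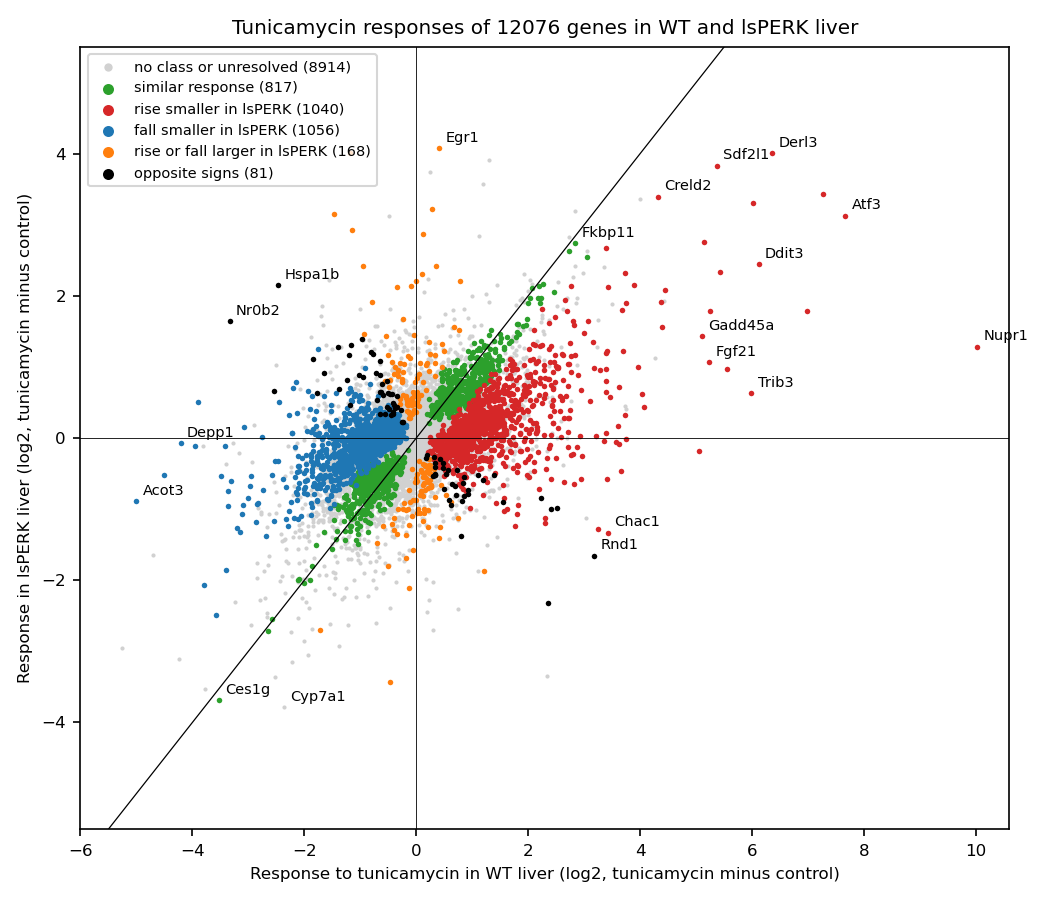
Each point is 1 of the 12076 genes; the x axis is its response in WT liver and the y axis its response in lsPERK liver (log2, tunicamycin minus control, means of 4 and 3 arrays), coloured by class with the number of genes in each. The solid line marks equal responses: Nupr1, Trib3 and Atf3 lie far below it with smaller rises, Fkbp11 and Ces1g lie near it, and Hspa1b, Nr0b2 and Rnd1 lie in the quadrants of opposite sign.

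Genes of the integrated stress response had the lowest median difference (-1.82) of the 28 lists described. Of 17 measured ATF4-related factors, 14 rose in WT liver and 3 in lsPERK liver, and 14 had a called difference below 0, against 9.71% of all genes (15 of 17 with the deposited values). Their median change was 1.86 in WT and 0.12 in lsPERK liver (log2), beside -0.13 and -0.02 over all genes. Atf4, the central factor, was at 2180 to 2360 in WT controls and 8080 to 8520 after tunicamycin, but at 2470, 4020 and 2010 in lsPERK controls and 3140, 3200, 2400 and 2720 after tunicamycin. The treated lsPERK arrays lay inside the range of their controls, and the difference was -1.79 ± 0.25 (SE, adjusted p = 0.00034).

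Ddit3, which encodes the pro-apoptotic factor CHOP, was measured at 191, 271 and 251 in WT controls and 15200, 16900, 16700 and 16500 in treated WT liver. In lsPERK liver it was at 273, 211 and 218 and then at 1430, 1500, 1060 and 1140. It rose in both genotypes without overlap with controls, by 6.12 and 2.45 (log2), and the difference was -3.67 ± 0.21 (SE, adjusted p = 3.4e-07). Trib3, a pseudokinase that damps ATF4 and CHOP, went from 69.9 to 174 up to 7710 to 8370 in WT liver. In lsPERK liver its range was 103 to 178 in controls and 163 to 258 after tunicamycin, which overlap, and the difference was -5.36 (adjusted p = 2.4e-06).

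Atf3, a stress-induced repressor, still rose in lsPERK liver, by 3.13, against 7.66 in WT liver. Ppp1r15a, the subunit that directs a phosphatase to eIF2, rose by 3.39 in WT and 0.64 in lsPERK liver, a difference of -2.75 (adjusted p = 9.1e-07). Chac1, which degrades glutathione, was at 2850 to 5120 in treated WT liver and 59.9 to 83 in treated lsPERK liver, and the difference was -4.75 (adjusted p = 0.00076). Fgf21, a hormone of the fasting liver, rose by 5.23 in WT liver to 2470 to 5830, while 80.9 to 178 was measured in treated lsPERK liver, a difference of -4.16 (adjusted p = 0.00091). Nupr1, a stress-induced chromatin protein, lay under the filter threshold of 41.61 in both control groups. With values raised to that threshold its difference was -6.12, against -8.73 unraised, and a second probe set gave -3.65 with a called rise in lsPERK liver. Without lsPERK control replicate 2 that second probe set represents the gene, and the difference of -3.48 was not called (adjusted p = 0.054). In the Xist-low arrays alone, which hold 1 lsPERK control, the difference of Nupr1 was -4.73.

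Not every factor of the list followed this pattern. Vldlr, a lipoprotein receptor, fell in lsPERK liver by 1.41 on the log2 scale and was not called in WT liver. Eif4ebp1, an inhibitor of cap-dependent translation, rose in WT by 0.73 and fell in lsPERK liver by 0.46. Atf5, Jdp2 and Stc2 had no called difference. These 5 genes and Ddit4 (difference -3.62) were named after their values were seen.

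Genes of amino acid synthesis and tRNA charging rose in more cases in WT than in lsPERK liver. Of 15 genes of amino acid and one-carbon synthesis, 8 rose in WT and 2 in lsPERK liver. Of these 15, 7 differed below 0 (7 with the deposited values), against 9.71% of all genes. Aldh18a1, the first step of proline synthesis, was at 26 to 102 in WT controls and 328 to 570 after tunicamycin. In lsPERK liver it was at 36.7 to 70.8 and then 34.9 to 76.4, the same range, and the difference was -3.40 ± 0.60 (SE, adjusted p = 0.0017). Mthfd2, of the mitochondrial folate cycle, had a difference of -2.09 and Got1, an aspartate aminotransferase, of -2.21. Asns, the classical ATF4 target asparagine synthetase, was not called: its WT controls were at 18.9, 360 and 420, and the difference was -1.59 with a 95% interval of -4.21 to 1.02. Its treated arrays did not overlap, with 672 to 2630 in WT and 72.5 to 274 in lsPERK liver.

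Among 18 amino acid transporters, 5 rose and 4 fell in WT liver, and 0 rose and 5 fell in lsPERK liver. As deposited, 7 rose and 1 fell in WT liver, and 0 rose and 2 fell in lsPERK liver. Of these 18, 4 differed below 0 and 1 above (5 and 1 with the deposited values), beside 9.71% and 10.2% of all genes. Slc7a1, the cationic amino acid carrier, rose by 4.08 in WT liver from 48.2 to 75 up to 805 to 1670, and it was at 50.5 to 88.6 in treated lsPERK liver (difference -3.65, adjusted p = 4.2e-05). Slc7a5, which carries large neutral amino acids, was not called in the Xist-low arrays alone. It fell in lsPERK liver, where its treated arrays were at 14.3, 11.1, 65.7 and 11.3. With values raised to the threshold its difference was -1.76, against -3.09 unraised. Slc36a1, a proton-coupled carrier of the lysosome, went the other way and fell by 2.38 in WT and by 0.57 in lsPERK liver.

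Of 19 cytosolic aminoacyl-tRNA synthetases, which load amino acids onto tRNA, 17 rose in WT and 10 in lsPERK liver (18 and 4 as deposited). Differences lay below 0 for 10 (11 with the deposited values) and above 0 for 1, Cars, beside 9.71% and 10.2% of all genes. Wars, for tryptophan, was at 269 to 352 in WT controls, 1390 to 1490 after tunicamycin, 186 to 272 in lsPERK controls and 362 to 422 after tunicamycin. It rose in both genotypes and by less in lsPERK liver (-1.54 ± 0.20, SE, adjusted p = 0.00021). Iars and Gars, for isoleucine and glycine, had differences of -1.28 and -1.04. The family was not uniform, since 5 members rose alike, among them Hars (0.86 and 0.69), Nars (1.02 and 0.75) and Farsa (0.94 and 0.74). A second Nars probe set had a called difference of -0.71, and Farsa was called below 0 with the deposited values.

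Translation factors showed the same direction, with 20 of 33 rising in WT and 9 in lsPERK liver (25 and 1 as deposited). Differences lay below 0 for 12 (14 with the deposited values and 6 with median centring), against 9.71% of all genes. Eif1a, which aids start codon scanning, rose by 2.37 in WT and 0.83 in lsPERK liver. Eif3a and Eif3d, subunits of the initiation complex eIF3, had differences of -1.28 and -0.74. Subunits of eIF2B, the exchange factor that phosphorylated eIF2 inhibits, included similar rises: Eif2b4 rose by 0.61 and 0.44, and Eif2b3 by 0.85 and 0.49 (called below 0 with the deposited values).

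The sensors of ER stress and their factors differed less. Of 14 measured, 10 rose in WT and 7 in lsPERK liver, and 3 had a called difference, all below 0: Eif2ak3 itself, Xbp1 and Ern1 (4 below 0 as deposited). Xbp1 was at 7480 to 9150 in WT controls and 12600 to 13500 after tunicamycin, while lsPERK arrays were at 8500 to 10400 and 8340 to 10400. The rise was called in WT and not in lsPERK liver, and the difference was -0.66 ± 0.13 (SE, adjusted p = 0.0037), not called with median centring. The array measures total Xbp1 mRNA and not its splicing. Ern1, which encodes IRE1, rose by 1.31 and 0.63, and the difference was -0.68.

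Atf6, the factor the series asks about, was represented by its brightest probe set, which went from 1310 to 1430 up to 2690 to 4060 in WT liver and from 866 to 1560 up to 2250 to 2530 in lsPERK liver. The treated genotypes did not overlap, yet the difference of responses was -0.20 with a 95% interval of -0.71 to 0.32, a similar rise. Its other 2 probe sets disagree, with called differences of -0.97 and -1.32 (adjusted p = 0.019 and 0.00071, over all kept probe sets). Both nevertheless rose in lsPERK liver, by 1.45 and 0.86. Atf6b and Creb3, related membrane-bound factors, rose alike, with differences of -0.40 and -0.19.

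Chaperones and folding enzymes of the ER rose in both genotypes. Of 35 measured, 30 rose in WT and 28 in lsPERK liver (33 and 23 as deposited), with medians of 1.14 and 0.99 (log2). The difference was called below 0 for 11 (13 with the deposited values and 7 with median centring), against 9.71% of all genes. Another 16 rose alike. Hspa5, the main ER chaperone BiP, was at 7310 to 9490 in WT controls and 19000 to 21100 after tunicamycin, and at 8120 to 9510 and 17800 to 18000 in lsPERK liver. The treated groups did not overlap with controls or with each other, and the difference of -0.24 (95% interval -0.48 to 0.00) was not called. The dimmest of its 3 probe sets had a called difference of -1.11.

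Hspa13, a microsomal stress chaperone, reached 6230 to 6780 in WT and 6120 to 6890 in lsPERK liver from 1190 to 1850 in controls of both genotypes (difference -0.05, 95% interval -0.41 to 0.30). Fkbp11, a prolyl isomerase, rose by 2.84 and 2.74, and Pdia6, a disulfide isomerase, by 1.97 and 1.67. Both responses of these 3 genes were called, and their differences were not called under quantile normalization, median centring or the deposited values.

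A second set of folding genes rose strongly in lsPERK liver but less than in WT liver. Creld2, a secreted ER stress protein, was at 785 to 1000 in WT controls, 16800 to 17600 after tunicamycin, 856 to 933 in lsPERK controls and 8080 to 10100 after tunicamycin. No treated array of 1 genotype lay near the other, and the difference was -0.93 ± 0.14 (SE, adjusted p = 0.00055). Alg12, a mannosyltransferase that shares the promoter printed above with Creld2, was at 417 to 521 and 323 to 359 in the treated groups. Its difference of -0.37 was not called, though 1 of its 3 probe sets had a called -0.74 and the deposited values gave a call at -0.98. Sdf2l1, a chaperone partner, rose by 5.37 and 3.83 and Pdia4, a disulfide isomerase, by 3.08 and 1.65. Ero1a, the oxidase that drives disulfide formation and a known CHOP target, rose by 2.54 and 0.99, a difference of -1.55 (adjusted p = 4e-05). Hsp90b1, the ER paralogue of HSP90, rose by 1.08 and 0.55, a difference of -0.53 that was not called with median centring.

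**Figure D2:**
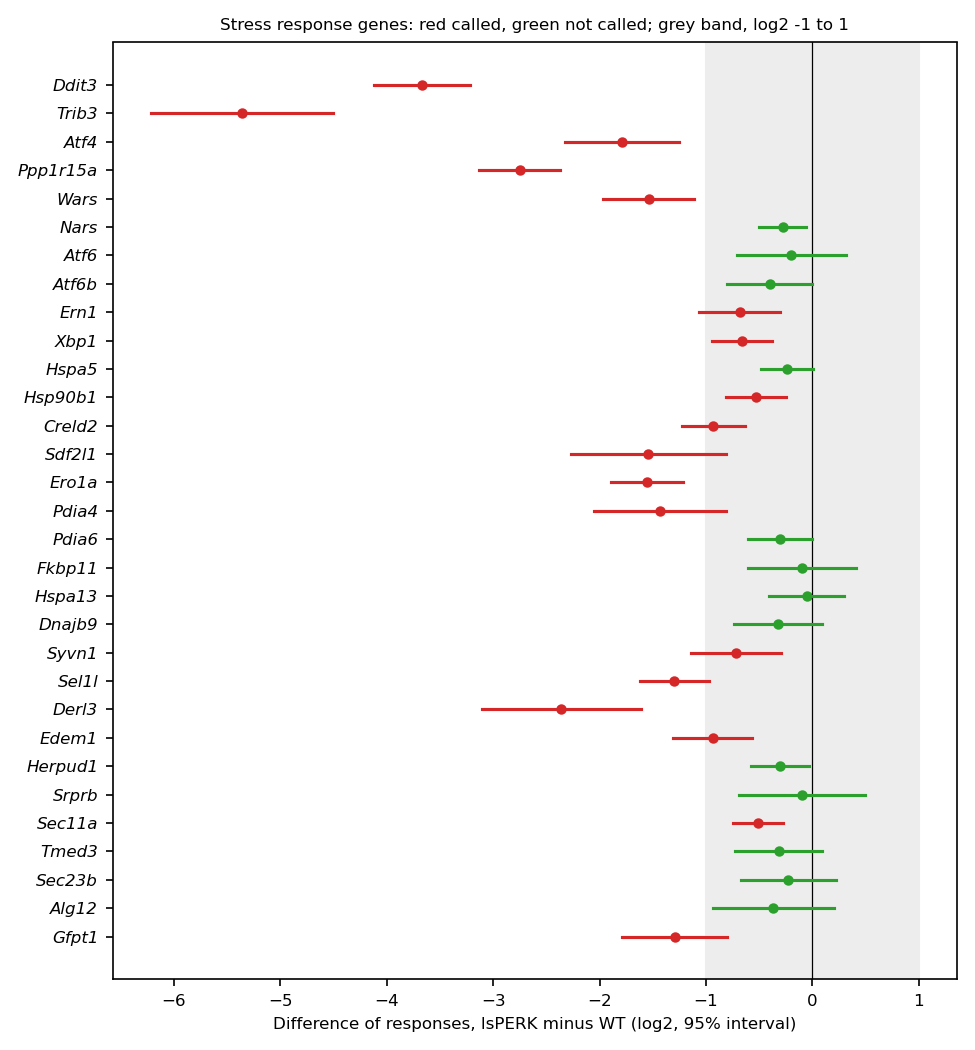
Difference of responses (lsPERK minus WT, log2) with its 95% interval for 31 genes of the integrated stress response, the ER stress sensors, folding, degradation, translocation, transport and sugar supply, red where called and green where not. Ddit3, Trib3 and Ppp1r15a lie wholly below -2, the folding genes run from -0.05 (Hspa13) to -1.55 (Ero1a), and Hspa5, Fkbp11, Hspa13 and Srprb lie within the grey band of -1 to 1.

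ER-associated degradation, which retrotranslocates misfolded proteins to the proteasome, was split. Of 32 members, 20 rose in WT and 13 in lsPERK liver (24 and 10 as deposited). Differences lay below 0 for 14 (17 with the deposited values and 8 with median centring), against 9.71% of all genes. Above 0 lay 2, and 4 responded alike, beside 10.2% and 6.77% of all genes. Derl3, a channel component, was at 71 to 101 in WT controls and 5300 to 8390 after tunicamycin, against 63.4 to 114 and 890 to 1690 in lsPERK liver (difference -2.36, adjusted p = 0.00054). Sel1l, the scaffold of the HRD1 ligase, went to 11000 to 14200 in WT and 4970 to 5100 in lsPERK liver from overlapping controls (difference -1.30, adjusted p = 0.0001). Syvn1, the HRD1 ligase itself, rose by 3.40 and 2.68, a difference of -0.72 that was not called with median centring or without WT control replicate 3 (adjusted p = 0.055). Edem1, which extracts mannose-trimmed glycoproteins, had a difference of -0.93. Herpud1, a scaffold whose promoter holds both element types, rose by 1.09 and 0.79. Its difference of -0.30 was not called, but it was with the deposited values (-0.48). Ubxn4, a partner of the ATPase p97, rose alike (1.30 and 1.14).

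Genes of entry into the ER mostly rose in both genotypes. Of 22 genes of the translocon, signal recognition particle and signal peptidase, 19 rose in each genotype (21 in WT and 16 in lsPERK liver as deposited) and 18 rose alike. The difference was called for 1 of 22 (2 with the deposited values and 0 with median centring), beside the 19.9% of all genes. Srprb, a subunit of the receptor for signal recognition, went from 415 to 635 up to 1380 to 2480 in WT and from 425 to 555 up to 1590 to 1910 in lsPERK liver. Srp19 rose by 1.41 and 1.22, and Spcs2, of the signal peptidase, by 1.31 and 1.14. The called member was Sec11a, the catalytic subunit of the peptidase, at 8240 to 8970 in treated WT and 5330 to 5970 in treated lsPERK liver. Its difference was -0.51, and -0.38 and not called with median centring.

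Transport from ER to Golgi showed 33 of 44 genes rising in WT and 28 in lsPERK liver (36 and 19 as deposited), 22 of them alike. Tmed3, a cargo receptor, rose by 2.21 and 1.90, Sec23b, of the COPII coat, by 1.83 and 1.60, and Sec22b, a SNARE, by 1.78 and 1.43. Differences lay below 0 for 6 of the 44 and above 0 for 3, beside 9.71% and 10.2% of all genes. As deposited they lay below 0 for 9 and above 0 for 1, beside 1771 and 129 of 12157 genes. Sec23a, the paralogue of Sec23b, rose in WT liver by 0.75 and was not called in lsPERK liver, at -0.10, and the difference was -0.85 (adjusted p = 0.0019). Stx5a, the Golgi syntaxin, rose by 1.68 and 0.63. Trappc1, a tethering subunit, fell in WT liver from 1660 to 2000 down to 709 to 938 and was at 1900 to 2080 in treated lsPERK liver, a difference of 1.39.

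Of 31 N-glycosylation genes, 14 rose in WT and 16 in lsPERK liver, but 19 and 11 did with the deposited values, so the scaling sets which count is larger. Of the 31, 11 responded alike. Ostc, a subunit of the transferase that tunicamycin starves of substrate, rose by 1.21 and 1.29, and Dhdds, which makes dolichol, by 1.20 and 1.31. Above 0 lay 4 of the 31 differences and below 0 3, beside 10.2% and 9.71% of all genes. With the deposited values, 4 lay below 0, beside 1771 of 12157 genes, and the median difference turned from 0.11 to -0.37. Relative to all genes the median was 0.03 and 0.05. Of 11 hexosamine genes, which supply the sugar of that pathway, 5 differed below 0 and 1 above (5 and 0 as deposited). Gfpt1, the rate-limiting enzyme, went to 8030 to 10600 in WT and 3640 to 3890 in lsPERK liver (difference -1.29, adjusted p = 0.0018), and Gnpnat1 had a difference of -1.17.

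Several mRNAs that IRE1 is reported to cleave fell to a like extent. Of 16 measured, 8 fell in WT and 6 in lsPERK liver, and 4 responded alike. The difference was called above 0 for 2 of the 16, beside 10.2% of all genes, and as deposited for 0. Ces1g, a carboxylesterase, dropped from 3480 to 3970 to 252 to 449 in WT liver and from 3370 to 4340 to 228 to 375 in lsPERK liver, which overlap fully, and the difference was -0.17 (95% interval -0.77 to 0.44). Hgsnat, a lysosomal acetyltransferase, fell by 1.41 and 1.31, and Pdk2, a kinase of pyruvate dehydrogenase, by 1.22 and 1.10. Ces1d, a close relative of Ces1g whose probes may cross-detect it, fell by 3.58 and 2.49, with a difference called at its brightest of 3 probe sets (1.09) and not with the deposited values.

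**Figure D3:**
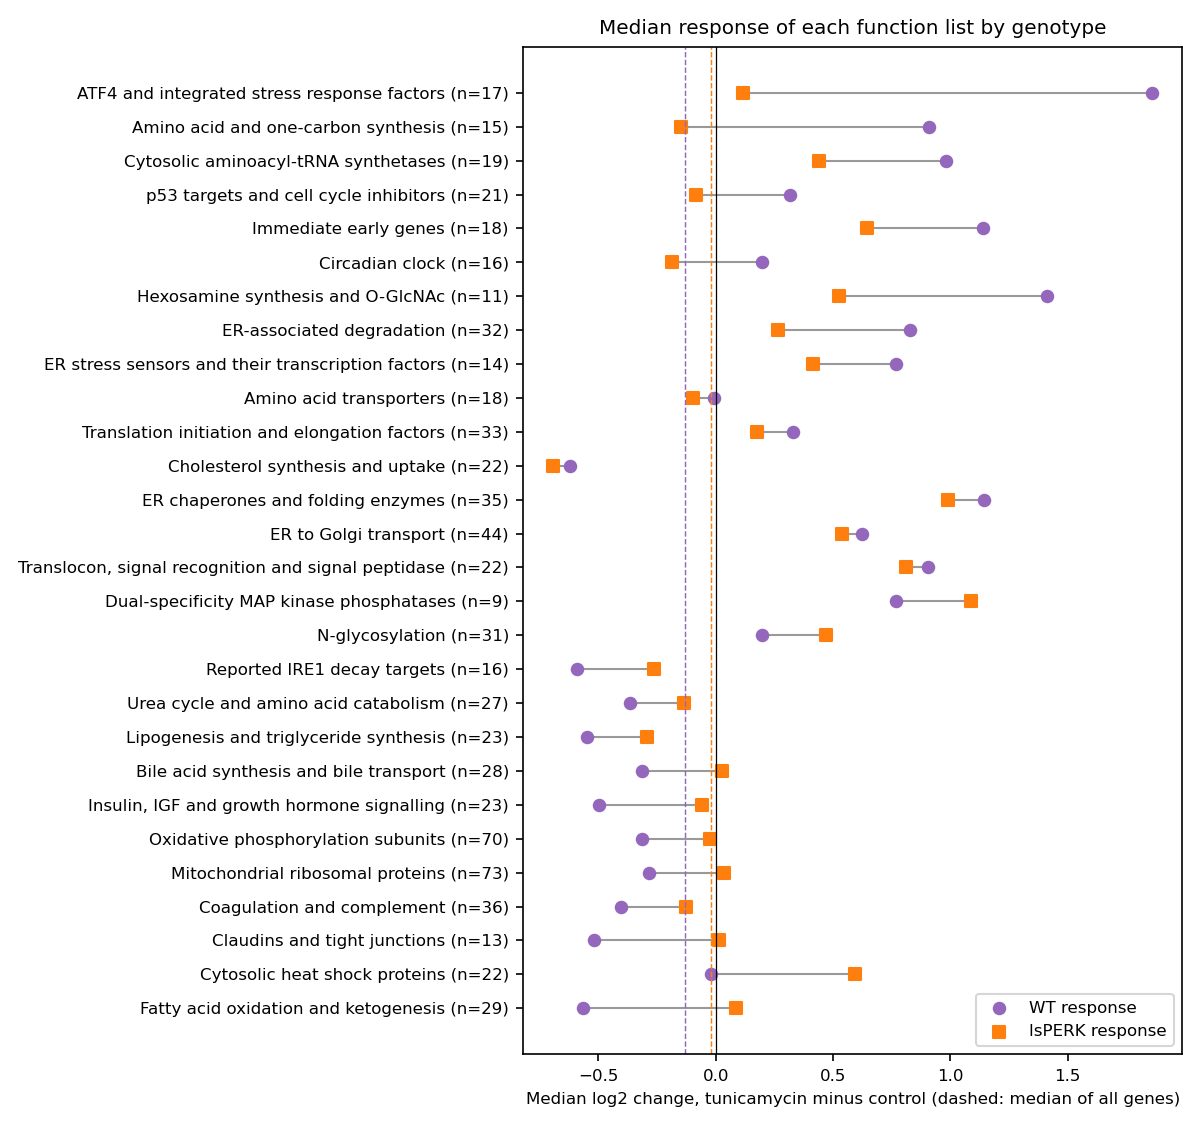
Median response of each of 28 function lists in WT (purple circles) and lsPERK liver (orange squares), in log2 units of tunicamycin minus control, with the number of genes measured; dashed lines mark the medians of all genes. Lists are ordered by the median difference, from the ATF4 factors (1.86 in WT, 0.12 in lsPERK) through the ER chaperone, Golgi and translocon lists, where both points lie close, to fatty acid oxidation (-0.57 in WT, 0.09 in lsPERK).

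Falls of oxidative metabolism genes were called far more often in WT than in lsPERK liver, and their number depends on the scaling. Of 29 genes that burn fatty acids or make ketone bodies, 24 fell in WT and 1 in lsPERK liver (10 and 0 as deposited), and 18 differed above 0, against 10.2% of all genes. With the deposited values 5 did, against 129 of 12157 genes, and the median difference was 0.36 in place of 0.59. Cpt2, the inner carnitine palmitoyltransferase, was at 3330 to 3950 in WT controls and 1310 to 1830 after tunicamycin, and at 3210 to 3850 and 3230 to 4900 in lsPERK liver. Only the treated WT arrays were low, and the difference was 1.47 ± 0.22 (SE, adjusted p = 0.00054), called under each of the 3 scalings. Bdh1, of ketone body synthesis, had a difference of 1.09, also called under each. Hadhb and Slc25a20 had differences of 0.80 and 0.88 that were not called as deposited. Cpt1a, the gatekeeper of the pathway, fell alike (-0.41 and -0.50).

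Ppara, the nuclear receptor that drives this pathway, was at 3610 to 5870 in WT controls and 865 to 1710 after tunicamycin, and at 3470 to 4590 and 2320 to 3960 in lsPERK liver. It fell in WT liver, the lsPERK groups overlapped, and the difference was 1.52 (adjusted p = 0.0074). Without WT control replicate 3 another of its probe sets is the brightest, and the difference of 0.76 was not called (adjusted p = 0.061). Acot3, a peroxisomal thioesterase, was at 45 to 362 in treated WT and 2020 to 2660 in treated lsPERK liver, a difference of 4.12.

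Subunits of oxidative phosphorylation fell in WT liver in 52 of 70 cases and in lsPERK liver in 2 (4 and 0 as deposited). Over all genes 26% fell in WT and 7.29% in lsPERK liver. Differences were called above 0 for 33 of the 70, against 10.2% of all genes. The falls were small, with a median of -0.31 in WT liver. With the deposited values 0 of 70 differences were called (4 at an unadjusted p under 0.05), and the median difference was 0.06 in place of 0.30. Relative to all genes the median was 0.22 and, as deposited, 0.48. Ndufb3, of complex I, had a difference of 0.93 and Sdhd, of complex II, of 0.72. Mitochondrial ribosomal proteins were called above 0 in 25 of 73 and below 0 in 2, beside 10.2% and 9.71% of all genes. As deposited, 129 of 12157 genes lay above 0 and 1771 below. Of these proteins 0 lay above and 7 below (12 at an unadjusted p under 0.05). Relative to all genes their median was 0.23 and, as deposited, 0.24. Mrps12 (0.74 and 0.71) and Mrps18b (1.28 and 0.84) rose alike, though Mrps18b was called below 0 with the deposited values (-0.82). Whether these 2 families responded differently in absolute terms thus rests on the scaling.

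Of 36 coagulation and complement genes, 25 fell in WT and 8 in lsPERK liver (8 and 3 as deposited). Over all genes 26% fell in WT and 7.29% in lsPERK liver. Of the 36, 11 differed above 0 (1 with the deposited values), against 10.2% of all genes. Klkb1, plasma prekallikrein, had a difference of 0.85 that was called in both. C2 and Hc, complement components, fell alike (-0.86 and -0.82 for C2, -1.79 and -1.51 for Hc). Of 13 claudins and tight junction genes, which seal the bile canaliculus, 8 fell in WT and 1 in lsPERK liver. As deposited 5 and 0 fell. Of the 13, 5 differed above 0 (4 as deposited), against 10.2% of all genes (129 of 12157 as deposited). The median difference of the 13 was 0.43, or -0.14 as deposited, and 0.35 and 0.28 relative to all genes. Cldn1 was at 610 to 914 in WT controls and 88 to 190 after tunicamycin, and at 649 to 1020 and 934 to 1280 in lsPERK liver, a difference of 2.97 (adjusted p = 0.00013). Cldn2 dropped from 1760 to 2630 to 259 to 446 in WT liver and stayed at 1460 to 2860 in treated lsPERK liver (difference 2.76). Cgn, the junction protein cingulin, had a difference of 2.10, and these 3 were called under each scaling. Ocln, occludin, fell alike.

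Bile, lipid and hormone genes were mixed, and their counts stand beside 10.2% above 0 and 9.71% below 0 for all genes. As deposited, 129 of 12157 genes lay above 0 and 1771 below. Of 28 genes that make bile acids or move bile, 8 differed above 0 and 1 below (4 and 2 as deposited). Abcg5, a sterol exporter, was at 796 to 1140 in treated WT and 2520 to 3280 in treated lsPERK liver, from overlapping controls (difference 1.57, adjusted p = 0.00039). Of 23 lipogenic genes, 5 differed above and 2 below 0 (1 and 2 as deposited), and the median difference went from 0.27 to -0.21 as deposited (0.19 and 0.21 relative to all genes). Lpin2, a phosphatidate phosphatase, had a difference of 1.67. Dgat2, which makes triglyceride, was at -0.01 in WT and fell by 0.87 in lsPERK liver. Of 27 genes of the urea cycle and amino acid breakdown, 5 differed above and 3 below 0 (1 and 3 as deposited), among them Gldc, of glycine cleavage (2.23), and Ass1, of the urea cycle (-1.46). Neither Gldc nor Ass1 was called in the Xist-low arrays alone. Of 23 genes of insulin, IGF and growth hormone signalling, 5 differed above and 1 below 0 (1 and 2 as deposited). Igfals, the carrier subunit of circulating IGF, was at 249 to 400 in treated WT and 1080 to 1260 in treated lsPERK liver, and the difference was 1.91 (adjusted p = 8.1e-05), called under each scaling.

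**Figure D4:**
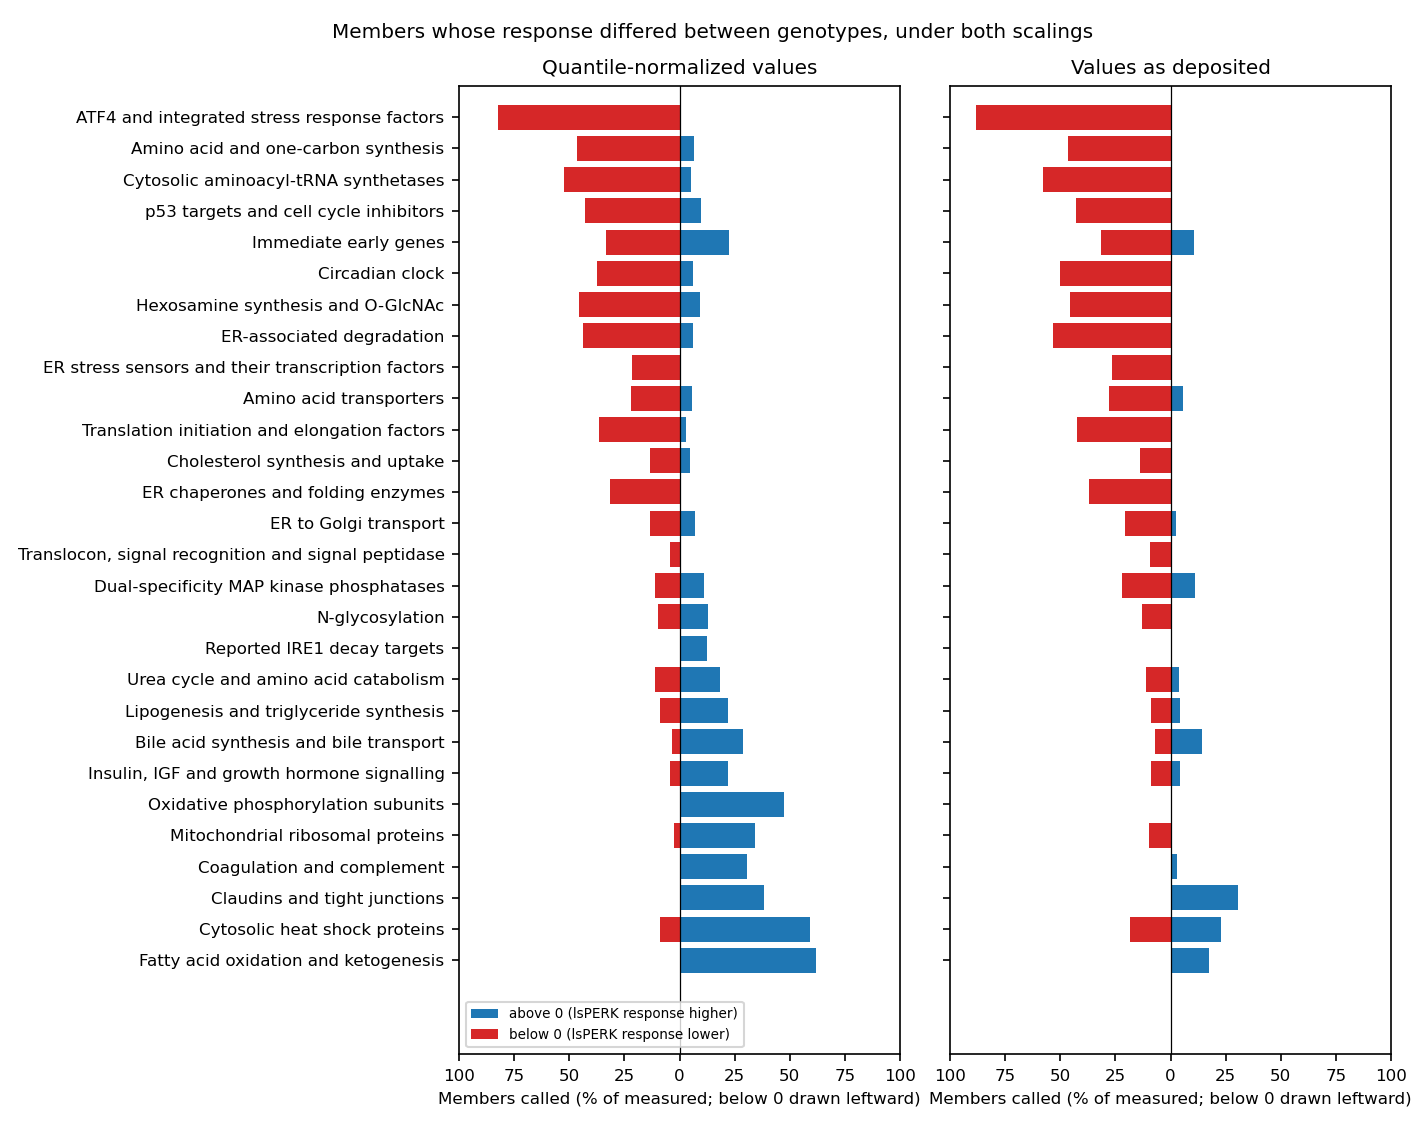
Percentage of the measured members of each list whose difference of responses was called above 0 (blue, rightward) or below 0 (red, leftward), with quantile-normalized values on the left and the values as deposited on the right. The red bars of the ATF4 factors and aminoacyl-tRNA synthetases are of like length in both panels, whereas the blue bars of oxidative phosphorylation and mitochondrial ribosomal proteins are absent on the right.

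Some falls of hepatocyte regulators were alike or could not be told apart. Cebpa, a factor of hepatocyte identity, fell by 1.01 and 1.23, with a difference of -0.22 (95% interval -0.74 to 0.30). Srebf1, which drives lipogenesis, fell from 2180 to 4340 to 564 to 1040 in WT and from 3650 to 4510 to 839 to 1930 in lsPERK liver, and Cyp7a1, the hydroxylase that commits cholesterol to bile acids, fell by 2.37 and 3.79. Their differences were 0.27 and -1.42 with intervals of -0.61 to 1.15 and -2.99 to 0.15, so a difference of log2 1 is not excluded by either interval. Igfbp1, an insulin-like growth factor binding protein, rose in both to 14500 to 19300, and the interval of its difference was -0.55 to 1.28. Outside the lists, Retreg3, an ER-phagy receptor, fell by 2.66 and 2.72, and Limd2 by 2.57 and 2.54. Similar rises included Slc17a9, a vesicular nucleotide carrier (2.73 and 2.63), Rcan1, a calcineurin regulator (2.26 and 2.17), and Trp53inp1 (2.07 and 2.12). Gmppb, which makes GDP-mannose, rose by 3.05 and 2.55 and was called below 0 with the deposited values.

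Opposite signs were called in 37 genes that rose in WT liver and 44 that fell there. Nr0b2, the nuclear repressor SHP of bile acid signalling, was at 939, 1560 and 1790 in WT controls and 179, 59.2, 241 and 137 after tunicamycin. In lsPERK liver it was at 732, 717 and 375 in controls and 1790, 1670, 1810 and 2050 after tunicamycin. Treated WT arrays were the lowest and treated lsPERK arrays overlapped with WT controls only at their lower end. The responses were -3.33 and 1.65 and the difference 4.98 ± 0.55 (SE, adjusted p = 7.1e-05), with a gap of -1.24 between the lsPERK and WT controls.

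Rnd1, a small GTPase, was the reverse case, with 70.7 to 138 in WT controls, 709 to 1990 after tunicamycin, 154 to 240 in lsPERK controls and 40.2 to 98.4 after tunicamycin (difference -4.83, adjusted p = 6.3e-05). Abtb2 rose by 2.51 and fell in lsPERK liver by 0.98. Txnip, an inhibitor of thioredoxin, fell in WT liver by 1.17 and rose in lsPERK liver by 1.31 (not called in the Xist-low arrays alone), and Cxcl1, a neutrophil chemokine, was at -1.84 and 1.11. Cldn14 dropped to 90 to 144 in WT liver and reached 624 to 761 in lsPERK liver. Nrg4, a growth factor of the EGF family, Shld2, Slc35g1 and the uncharacterised Gm17753 also fell in WT and rose in lsPERK liver. Ctrl, a digestive protease, lay under the filter threshold in 3 groups, and with values raised to it the difference was -0.39 in place of -4.68. Lrrc24 was likewise dim, with 1 treated lsPERK array at 41.4 and the others at 17.2 to 19.2. All 12 opposite-sign genes named by rule kept a called difference as deposited and with median centring. Opposite signs, however, remained for 12 of the 81 genes as deposited and 32 with median centring, since 1 of the responses was then not called or changed side.

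Cytosolic heat shock proteins rose in more cases in lsPERK liver. Of 22 measured, 6 rose in WT and 12 in lsPERK liver (7 and 9 as deposited). Of these 22, 13 differed above 0 and 2 below (5 and 4 as deposited), beside 10.2% and 9.71% of all genes. The median difference was 0.55, and 0.21 as deposited. Hspa1b, the inducible HSP70, was at 1050, 3250 and 2360 in WT controls and 306, 383, 378 and 389 after tunicamycin, but at 1280, 1720 and 1670 in lsPERK controls and 6650, 3500, 11700 and 8070 after tunicamycin. It fell below all controls in WT liver and rose above all of them in lsPERK liver, a difference of 4.62 ± 0.53 (SE, adjusted p = 9.2e-05) that its 3 probe sets shared. Hspa1a, a near-identical copy that these probes may not separate, gave the same difference of 4.62.

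Hspa4l, a nucleotide exchange factor for HSP70, was at 161 to 195 in treated WT and 776 to 869 in treated lsPERK liver (1.95, adjusted p = 5.5e-05). Dnajb4, a J-domain partner, rose in lsPERK liver by 1.06 and differed by 1.34, and Fkbp4, an HSP90 partner, fell in WT liver by 1.44 and differed by 1.50. Hspa1a, Hspa1b, Hspa4l, Dnajb4 and Fkbp4 were called above 0 under each of the 3 scalings. Hsph1, Dnajb1, Hsp90aa1 and Hspa8, named after their values were seen, rose in lsPERK liver by 1.05, 0.87, 0.59 and 0.59 and were not called in WT liver.

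Immediate early genes split by member. Of 18 measured, 9 rose in each genotype, with 4 differences above 0 and 6 below, beside 10.2% and 9.71% of all genes. As deposited, 11 of 19 rose in WT and 6 in lsPERK liver, and 2 differences lay above 0. Egr1, a growth-factor-induced zinc finger factor, was at 936 to 1320 in WT controls and 1210 to 2040 after tunicamycin, and at 255, 762 and 519 in lsPERK controls and 7860, 9950, 6490 and 7620 after tunicamycin. The treated lsPERK arrays stood above all others, and the difference was 3.67 ± 0.43 (SE, adjusted p = 0.00011), with a gap of -1.30 between the lsPERK and WT controls. Fos was at 107 to 173 in treated WT and 1050 to 1720 in treated lsPERK liver (difference 2.95, adjusted p = 0.0042). Dusp6, a phosphatase that ends ERK signalling and is induced by it, rose in lsPERK liver by 2.30 and was at 0.11 in WT liver. Jund and Ier5 went the other way, with differences of -1.26 and -1.37. Myc (-4.54) and Jun (-1.85), named after their values were seen, also had smaller rises in lsPERK liver. Of 9 dual-specificity phosphatases, 4 rose in WT and 7 in lsPERK liver. The difference lay above 0 for 1 and below 0 for 1, beside 10.2% and 9.71% of all genes. As deposited, 6 rose in each genotype, and the difference lay above 0 for 1 and below 0 for 2. Dusp8 had a difference of -2.71, called under each of the 3 scalings. Dusp4 (1.49 and 1.35) and Dusp10 (0.77 and 0.76) rose alike.

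Some growth arrest and clock genes had smaller rises in lsPERK liver, 8 of 21 and 5 of 16 measured. Of the 21 p53 targets and cell cycle inhibitors, 9 differed below 0 and 2 above (9 below as deposited), beside 9.71% and 10.2% of all genes. Gadd45a, a DNA damage and growth arrest protein, was at 150 to 192 in WT controls and 5430 to 6350 after tunicamycin, and at 207 to 258 and 477 to 758 in lsPERK liver (difference -3.66, adjusted p = 3.4e-07). Gadd45g had a difference of -3.49 with uneven lsPERK controls of 161, 410 and 1220. Sesn1, a stress-induced sestrin, fell by 0.89 in both genotypes. Of the 16 clock genes, 7 rose and 4 fell in WT liver. Differences lay below 0 for 6 and above 0 for 1 (8 below as deposited), beside the same 9.71% and 10.2%. Nfil3, a repressor of the D-box, was at 1780 to 2910 in treated WT and 165 to 233 in treated lsPERK liver (difference -3.26, adjusted p = 0.00016). Rora, an activator of Arntl, had a difference of -1.58 in which 7 of 8 probe sets shared. Per3, of the repressive limb, fell alike (-1.27 and -1.31). The control collection time is not given, which bears on these genes, and its part was not tested.

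Of 22 cholesterol genes, 4 rose and 11 fell in WT liver, and 1 rose and 7 fell in lsPERK liver, with medians of -0.62 and -0.69. As deposited, 5 rose and 3 fell in WT liver and 4 fell in lsPERK liver. The difference was called below 0 for 3 of the 22 and above 0 for 1, beside 9.71% and 10.2% of all genes. As deposited it was called below 0 for 3 and above 0 for 0, beside 1771 and 129 of 12157 genes. Insig1, which retains the SREBP activator, fell by 0.81 and 1.08, and Insig2 rose by 1.27 and 0.94. Mvd, of the mevalonate pathway, rose in WT liver to 838 to 1320 and was at 171 to 196 in treated lsPERK liver (difference -2.77, adjusted p = 0.0018). In the Xist-low arrays alone its difference was -1.82 and not called. Fdps (-1.47) and Lss (-1.26), of the same pathway, lost their call in 8 and 11 of the 14 fits that left out an array.

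The other genes that led the comparison belong to several functions. Among smaller rises, Tes, a focal adhesion protein, was at 46.2 to 65.6 in WT controls, 2420 to 3160 after tunicamycin, 57.9 to 93.9 in lsPERK controls and 129 to 180 after tunicamycin (difference -4.59, adjusted p = 3.4e-07). Ifrd1, a transcriptional co-regulator, had a difference of -3.41, Ddx28, a mitochondrial RNA helicase, of -3.40, and Cyp2b10, the phenobarbital-inducible P450, of -3.77. Cyp2b10 went from 476 to 1340 up to 9220 to 11400 in WT liver and was at 881 to 2030 in treated lsPERK liver, beside 1100 to 1460 in its controls. Among smaller falls, Depp1, a FOXO target, was at 138 to 486 in treated WT and 1060 to 1800 in treated lsPERK liver, with a gap of -1.74 (log2) between the lsPERK and WT controls (difference 4.14). Arrdc3, an arrestin-domain protein, had a difference of 3.31, Paqr7, a progestin receptor, of 3.99, and Nmrk1, a nicotinamide riboside kinase, of 2.95. Rnf186, a ubiquitin ligase, lay under the threshold in treated WT liver, and its difference was 3.56 with values raised to it. All 24 genes that led the comparison above and below 0 were called as deposited and with median centring.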

How the data were processed

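Liver RNA of 14 samples was measured on Affymetrix Mouse Genome 430 2.0 arrays after a 3′ labelling protocol starting from 100 ng of RNA, per the labels. The deposited values are linear MAS5 intensity values made with GCOS, per the submitters' processing notes, which give no version. The log2 of the deposited values was quantile normalized. The comparison is defined on the log2 of the deposited values themselves, which is therefore given as an alternative scaling. Probe sets above the pooled median (41.61) on at least 3 arrays were kept, and of several probe sets the one with the highest mean stands for each of the 12076 genes, so genes with several probe sets can differ between them. A gene-wise model of 4 group means was fitted with limma 3.58.1 (R 4.3.3; lmFit and eBayes with trend), giving the WT response, the lsPERK response and their difference, and p-values were adjusted by Benjamini-Hochberg over all genes, with 0.05 as the threshold. Figures and promoter searches used Python 3.11.15. Array number limits the precision.

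Genes were named by rule: 12 on each side of 0 by the limit of the 95% interval nearest 0, up to 12 with opposite signs, 8 similar rises and 4 similar falls, up to 4 by p and 3 similar genes of each of 28 lists, and 25 chosen genes, together 215. Members and lists were chosen with earlier results of these data known. Values of dim groups were also raised to 41.61 before the difference was taken. On simulated arrays of the same size, 200 of 12076 genes were changed by each step. On those arrays 47.5% of differences of log2 1 and 80.5% of log2 2 were recovered, and 4.83% of calls were false. The share of false calls on the measured arrays was not tested. Alternatives were the scaling, the filter, a minimum difference, covariates, a replicate block and leaving out each array.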

Additional observations from a re-analysis of the deposited data

Results flagged for a closer look

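The response to tunicamycin differed between the genotypes for 2403 genes by the test of the difference itself. Among the named genes, 24 of 430 combinations of gene and tunicamycin group held an array standing apart from the other 3 by Dixon's criterion, and chance gives about 1 in 20.

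In treated WT liver, replicate 1 stood apart for Chac1 at 5120 (others 2850 to 3130), Clock at 681 (631 to 639), Dusp8 at 720 (563 to 582), Farsa at 329 (510 to 557), Fos at 173 (107 to 110) and Hspa1b at 306 (378 to 389). Replicate 2 stood apart for Cyp2b10 at 9220 (11300 to 11400), Eif2ak3 at 2420 (1720 to 1770), Pdk2 at 492 (577 to 584), Rnd1 at 1990 (709 to 834) and Rora at 6140 (8770 to 9360). It also did for Srp68 at 3410 (2910 to 2980), Tes at 3160 (2420 to 2490) and Wars at 1390 (1480 to 1490). Replicate 4 stood apart for Ciart at 817 (500 to 533).

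In treated lsPERK liver, replicate 1 stood apart for Insig1 at 3870 (2480 to 2660), Lpin2 at 2730 (3470 to 3640), Lrrc24 at 41.4 (17.2 to 19.2) and Sec11a at 5330 (5900 to 5970). Replicate 3 stood apart for Cebpa at 3560 (2170 to 2330), Dnajb9 at 11700 (10300 to 10400) and Slc7a5 at 65.7 (11.1 to 14.3). Replicate 4 stood apart for Eif3d at 3110 (3440 to 3500) and Sesn3 at 516 (572 to 577).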

How the results depend on the processing

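With the deposited values, 129 differences were called above and 1771 below 0, lsPERK liver had 695 called responses, and there were 1656 smaller rises, 95 smaller falls, 20 opposite signs and 142 similar responses. Median centring gave 661 differences above 0, 541 smaller falls and 44 opposite signs. A minimum difference of log2 1 left 978 differences (428 above and 550 below 0), 497 smaller rises and 348 smaller falls. The 3′ to 5′ ratio as a covariate gave 46 opposite signs. The Xist-low arrays alone gave 1222 differences (520 above, 702 below), 719 lsPERK responses, 641 smaller rises, 427 smaller falls, 40 opposite signs and 292 similar responses, with fewer arrays. Array number and Xist status cannot be told apart in those arrays, and the cause of these changes was not tested.

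Leaving out 1 array at a time gave 1937 to 2290 differences (957 to 1172 above, 962 to 1160 below), 4894 to 5705 WT responses, 1128 to 2059 lsPERK responses, 837 to 1007 smaller rises, 837 to 1023 smaller falls, 44 to 88 opposite signs and 477 to 859 similar responses. The lowest lsPERK (1128), opposite (44) and similar (477) counts were without lsPERK control replicate 2, and 53 opposite signs remained without lsPERK tunicamycin replicate 2. Of 132 named genes with a called difference, 121 kept it in all 14 fits. The others were Lss (lost in 11), Pik3r1 (9), Fdps and Slc7a2 (8 each), Ost4 and Rpn1 (2 each) and Grb14, Nupr1, Ppara, Stat5a and Syvn1 (1 each). No named gene was called in the other direction under any setting run, but as deposited the median differences of 8 of the 28 lists changed from above to below 0. They became -0.37 for N-glycosylation, -0.32 for IRE1 decay targets, -0.50 for dual-specificity phosphatases, -0.14 for claudins, -0.21 for lipogenesis, -0.17 for mitochondrial ribosomal proteins, -0.02 for the urea cycle and -0.03 for insulin signalling. Of the named genes, 30 lost their call as deposited, 14 with median centring and 26 in the Xist-low arrays alone. A replicate block gave 2240 differences, of which 2109 were among the 2403. Deviations of same-numbered samples correlated at -0.367 to 0.419. The correlation was positive where both arrays were high or both low in Xist, and negative where they differed. It therefore cannot show whether the numbers pair the samples.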
